A study of Mus musculus with 2 samples.

Results

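The endothelial cells of the liver library labelled P180 were chosen by their transcripts, and 119 of the 9582 barcodes kept in that library met the rule (1.24%, exact binomial 95% interval 1.03 to 1.48). The rule asked for at least 5 UMIs (unique molecular identifiers, each standing for 1 captured RNA) from at least 2 of 7 endothelial genes: Stab2, Ptprb, Kdr, Flt1, Gpr182, Egfl7 and Cdh5. It allowed at most 1 UMI of the mesenchymal genes Dcn, Col1a1 and Col3a1, under 20% of UMIs from 4 haemoglobin genes and under 1% from the neutrophil genes Camp and Ngp. Levels of these genes chose the cells, so they are given as a description. The same rule gave 1093 of 4721 kept barcodes in the library labelled E18.5.

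The study made single-cell RNA libraries from 2 chimaeric mouse livers, 1 with an embryonic day as its label, E18.5, and 1 with a postnatal day, P180. Both grew in Hhex knockout hosts that had been injected at the blastocyst stage with tetraploid (4N) embryonic stem cells carrying tdTomato, so no untreated, diploid or Hhex-intact liver stands beside them. Each label has 1 library from 1 liver, no test between the libraries was made, and stage, animal and library cannot be told apart. No feature for tdTomato is in the gene table used here, and whether a given endothelial cell came from the host or the donor was not analysed here.

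Endothelial cells line blood vessels. In the liver, most line the sinusoids, wide capillaries with pores and no continuous basement membrane, where they clear waste from blood with scavenger receptors such as Stab2, Stab1, Mrc1 and Lyve1. Those near the central vein send Wnt and R-spondin signals (Wnt2, Wnt9b, Rspo3) that hold hepatocytes in their central identity, and arteries and larger veins have programmes of their own. The fetal liver is also a site where blood is made.

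The promoters of some genes that the cells share or divide on are shown as the sequence context of these vessel programmes, as the 250 bases upstream of the start in RefSeq (GRCm38.p6), 5′ to 3′ on the gene's strand. Capitals mark AGGAAG or its reverse complement CTTCCT, a core recognised by ETS factors, the family of Erg, Fli1 and Ets1. Stab2 and Mrc1 are scavenger receptors of sinusoids, Flt1 is a VEGF receptor of all vessels, and Wnt2 is a central-side signal.
Stab2, chr10:87007943-87008192, minus strand: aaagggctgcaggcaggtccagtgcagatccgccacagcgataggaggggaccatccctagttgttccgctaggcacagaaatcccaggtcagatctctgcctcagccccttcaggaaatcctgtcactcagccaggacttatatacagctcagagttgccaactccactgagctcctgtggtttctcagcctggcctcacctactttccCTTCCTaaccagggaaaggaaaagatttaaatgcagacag
Mrc1, chr2:14229164-14229413, plus strand: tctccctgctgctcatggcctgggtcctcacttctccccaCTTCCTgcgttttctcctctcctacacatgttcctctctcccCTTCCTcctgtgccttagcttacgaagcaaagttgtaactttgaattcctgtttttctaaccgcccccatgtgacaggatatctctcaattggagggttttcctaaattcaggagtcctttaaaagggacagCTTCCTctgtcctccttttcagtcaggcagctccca
Flt1, chr5:147726012-147726261, minus strand: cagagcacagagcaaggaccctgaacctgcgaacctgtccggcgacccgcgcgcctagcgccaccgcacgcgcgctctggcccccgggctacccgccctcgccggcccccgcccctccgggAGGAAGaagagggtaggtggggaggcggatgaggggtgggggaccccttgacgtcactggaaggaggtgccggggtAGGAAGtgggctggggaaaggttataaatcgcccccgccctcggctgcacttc
Wnt2, chr6:18030446-18030695, minus strand: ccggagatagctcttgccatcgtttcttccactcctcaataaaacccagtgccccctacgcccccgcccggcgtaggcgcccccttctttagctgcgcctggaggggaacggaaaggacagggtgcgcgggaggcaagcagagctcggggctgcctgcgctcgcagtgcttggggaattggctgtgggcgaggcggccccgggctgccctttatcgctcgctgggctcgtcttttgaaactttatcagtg
There were 1, 3, 2 and 0 matches in these windows. Over the 32851 promoter windows searched, 29.5% held at least 1 match, against 8 of 12 windows found for 10 of the 17 genes shared by all vessels and 7 of 15 windows found for 14 of the 20 sinusoid genes. The search did not cover every chromosome and left out entries that were not of full length. A match is a run of letters and no measured site. The windows of Lyve1, Rspo3 and Aplnr were not used here. The factors of the family were measured at 289 CPM (249 to 335) for Erg, 839 CPM (769 to 914) for Fli1 and 890.5 CPM (818 to 968) for Ets1, where CPM is a gene's UMIs summed over the cells and scaled to 1000000, with an exact Poisson 95% interval. All intervals cover counting error only, not the spread between animals, and those on summed UMIs also leave out the spread between cells.

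Not all 119 barcodes were alike. In 112 of them the 7 selection genes made up 0.314% to 1.46% of UMIs, while in the other 7 they made up 0.00825% to 0.0236%, with none in between. Those 7 held 25495 to 60605 UMIs each, against a median of 3353.5 in the 112, and together 33.6% of all UMIs of the 119. Each met the rule with 5 to 7 selection UMIs from 2 genes and had no Stab2, Lyve1 or Aplnr UMI. All 7 also carried genes of blood-forming cells: 198 of the 205 Runx1 UMIs, 44 of 47 of Gfi1b and all 26 of Myb lay in them. Summed over the 7, megakaryocyte markers gave 582 UMIs (491 in 1 barcode), B cell markers 219 (211 in 1) and neutrophil markers 374 (240 in 1), against 25, 23 and 601 in the 112. The levels below are therefore over the 112 unless stated, a choice made after seeing the data, and compared with 1072 of the 1093 barcodes labelled E18.5 that met the same minimum of 0.1%. Of the 21 left out there, shares ran up to 0.0954% with no such gap. A gene absent from the 7 has a CPM over all 119 that is 0.664 times its CPM over the 112.

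**Figure D1:**
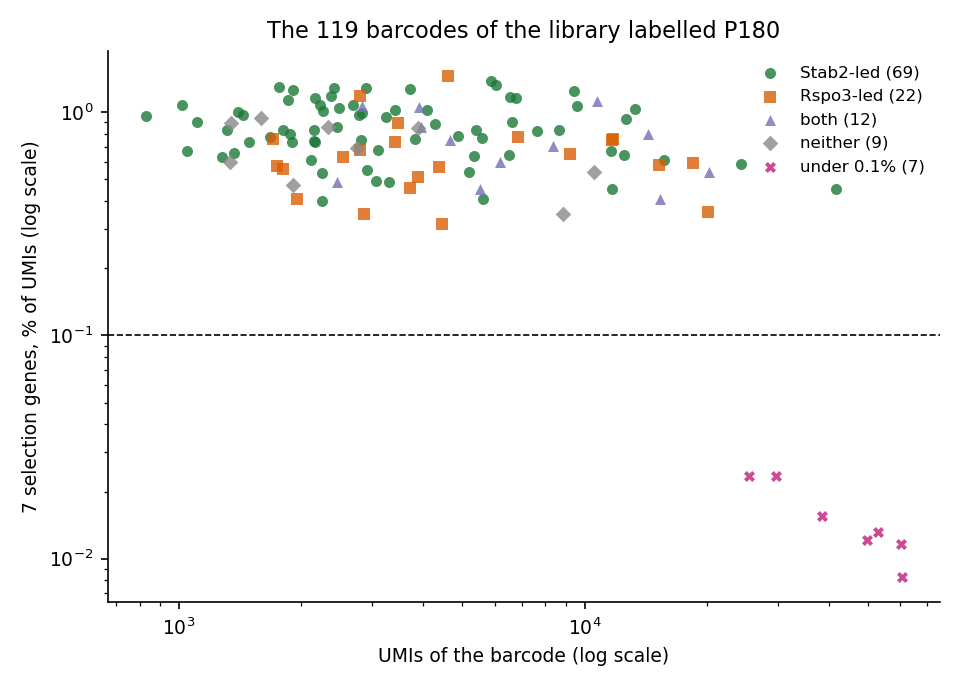
Each point is 1 of the 119 barcodes labelled P180, by its UMIs (x, log scale) and the percent of them from the 7 selection genes (y, log scale). The 7 crosses lie under the dashed line at 0.1%, from 25495 UMIs upward, and the 112 others lie above it, split by Stab2 and Rspo3 as described in the text.

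The 2 libraries were checked before any comparison. Their selected cells had close median depths (3353.5 UMIs in the 112 and 3348.5 in the 1072), but 24 of the 112 and 94 of the 1072 had at least 8000 UMIs, so unthinned shares of cells with a gene compare unequal depths. Mitochondrial shares had medians of 10.2% and 12.5%, where deeper cells had lower shares (Spearman rho -0.77 over 112 cells and -0.81 over 1072, a description). Of 28 barcodes that occur in both libraries, 0 were among the selected cells. In the library labelled P180, 7115 of 9582 kept barcodes (74.3%) had at least 20% haemoglobin, and haemoglobin also made up a median of 0.673% of UMIs in the 112 endothelial cells against 0.0780% in the 1072. Red cell formation and high fetal growth genes are features of fetal liver, so the order found here goes against the ages in the labels. Each library is named by its label, and every direction below is of labels, not of age. Hhex, the gene knocked out in the hosts and a factor of liver and vessel formation, stood at 57.6 CPM (40.3 to 79.7) with the P180 label and 128 CPM (118 to 139) with the E18.5 label. The sources used here do not say which part of it was deleted, so this level checks no genotype.

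The selection genes were found in most of the 112 cells, which the rule favours: Ptprb, a phosphatase at endothelial junctions, in 102, Kdr, the main VEGF receptor, in 97 and Stab2 in 88. Vessel genes that the rule did not use check the label. Eng, a TGF-beta co-receptor of endothelium, was found in 96 cells, Pecam1, a junction protein, in 91, Lyve1, a hyaluronan receptor, in 74, and Aplnr, the apelin receptor, in 25. With cells thinned to 1000 UMIs (1 shallower cell left out), the shares were 43.2% for Pecam1 and 39.6% for Lyve1, against 0.103% and 0.103% of erythroid barcodes of the same library thinned alike, where such transcripts are background (median depths before thinning 3353.5 and 5520 UMIs). Among markers of other tissue cells that the rule did not use, the 7 mesenchymal genes gave 1 UMI (of Rgs5) in the 112, T cell markers 0, bile duct markers 1 and mesothelial markers 1. Hepatocyte markers gave 71 UMIs in 27 cells. Neutrophil markers (9 genes, Camp and Ngp of the rule among them) gave 601 UMIs in 104 of the 112 cells. Their summed level was 961 CPM against 62378.5 CPM in the rest of the library, with medians per cell of 1078 and 968 CPM. Where these transcripts came from was not tested. Of the lymphatic genes, Prox1 gave 4 UMIs and Pdpn and Mmrn1 none. At the edge of the rule, barcodes with 3 or 4 selection UMIs that met the other limits numbered 7 and 5 (3 and 1 of them at or above 0.1%), and barcodes with 5, 6, 7 and 8 numbered 1, 3, 4 and 4 (0, 0, 1 and 4).

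Genes that stood out over the rest of the same library were vessel genes, as the choice of cells makes likely, and are a description. By the fixed rule the 20 highest ratios over the rest were led by Oit3, Gpihbp1, Fbln2, Fabp4, Fam167b, Sox7, Pgm5 and Clec14a. Gpihbp1, which anchors lipoprotein lipase on capillaries, stood at 358 CPM against 0.18 in the rest. Fabp4, a fatty acid carrier, stood at 2239.8 against 1.18, and Mrc1, the mannose receptor, at 764 against 0.675. Further members were Npr1, Unc45b, Dpysl3, Clec4g, Lhx6, Sox17, Inhbb, Cldn5, Bace2, Cyyr1 and Galnt18.

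The 112 cells fell along an axis of Stab2 and Rspo3. At a threshold of 2 UMIs, set after seeing the data, 69 cells had Stab2 and not Rspo3, 22 had Rspo3 and not Stab2, 12 had both and 9 had neither. In the Stab2-led cells Stab2 ran from 2 to 41 UMIs (median 10) and Rspo3 was found in 1 cell. In the Rspo3-led cells Rspo3 ran from 2 to 56 UMIs (median 10.5) and Stab2 was found in 2 cells, at 1 UMI each. Eng, used neither in the selection nor in the split, was found in all 22 Rspo3-led cells and in 57 of the 69 Stab2-led cells. With the E18.5 label the same thresholds gave 441, 236, 34 and 361 cells.

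Genes named for the 2 kinds of cell were chosen after their values were seen. Wnt2, the central-side Wnt, stood at 494 CPM (384 to 625) in the Rspo3-led cells and was found in 16 of 22 cells, against 48.2 CPM (28.1 to 77.2) in the Stab2-led cells, where 5 of 69 had it. Wnt9b, a second central-side Wnt, stood at 115 against 0 CPM. Adamtsl1, a matrix protein, stood at 3215 CPM (2925 to 3527) and was found in 18 of 22 cells, while all 16 of its UMIs in Stab2-led cells came from 1 of 69. Fbn1, the main protein of elastic microfibrils, was found in 21 of 22 and 12 of 69 cells, at 1518 and 82.2 CPM. Sdk1, an adhesion molecule, was found in 21 of 22 and 11 of 69. Fbln2, a matrix protein, was found in 16 of 22 cells and in 0 of 69, a level at least 108-fold higher against a floor of 3 counts. Aplnr and its ligand Apln, a signal of growing vessels, lay on the same side. Aplnr was found in 12 of 22 and 7 of 69 cells, and Apln in 6 of 22 and 0 of 69. Vwf, the clotting factor of larger vessels, stood at 795 and 145 CPM.

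Other genes were higher in the Stab2-led cells. Mrc1 stood at 1148 CPM (1039 to 1266) there and was found in 62 of 69 cells, against 64.4 CPM (29.5 to 122) and 6 of 22. Adam23, a surface protein, was found in 52 of 69 cells against 1 of 22, and Gatm, an enzyme of creatine synthesis, in 48 of 69 against 1 of 22. Slc9a9, an endosomal sodium-proton exchanger, was found in 50 of 69 and 0 of 22 cells. The growth factors Hgf and Bmp6, which act on hepatocytes, stood at 173 and 153 CPM against 7.16 and 0. The antibody receptor Fcgr2b stood at 209.8 against 0, and the nuclease Dnase1l3 at 536 against 43.0. Lyve1 was less divided, found in 50 of 69 Stab2-led and 8 of 22 Rspo3-led cells. The 12 cells with both Stab2 and Rspo3 had Mrc1 in 9, Lyve1 in 10, Wnt2 in 10 and Sdk1 in 11. Their median depth was 5857 UMIs against 2893 and 3794 in the Stab2-led and Rspo3-led cells, and whether any of them hold more than 1 cell was not tested.

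The same split was looked for in the library labelled E18.5, which took no part in choosing the genes. Apart from Rspo3 itself, 18 of the 19 genes with the highest Rspo3-led over Stab2-led ratios under the P180 label were also at least 2-fold higher in the Rspo3-led cells labelled E18.5, against 4.49% of 3497 genes with at least 30 UMIs in these cells of both libraries. The leading genes had to meet that minimum under the P180 label alone, and Peg3 rests on 9 and 5 UMIs under the E18.5 label. Fbn1 was the exception, at 209 and 111 CPM there. On the Stab2 side 15 of 19 were at least 2-fold lower in the Rspo3-led cells, against 5.69%, and Rerg, Lifr, Tfec and Peg10 were not. Adam23 had nearly equal levels in the Stab2-led cells of both libraries (1058 and 1124 CPM), while Rspo3 in Rspo3-led cells was 2506 CPM with the P180 label and 5752 with the E18.5 label.

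**Figure D2:**
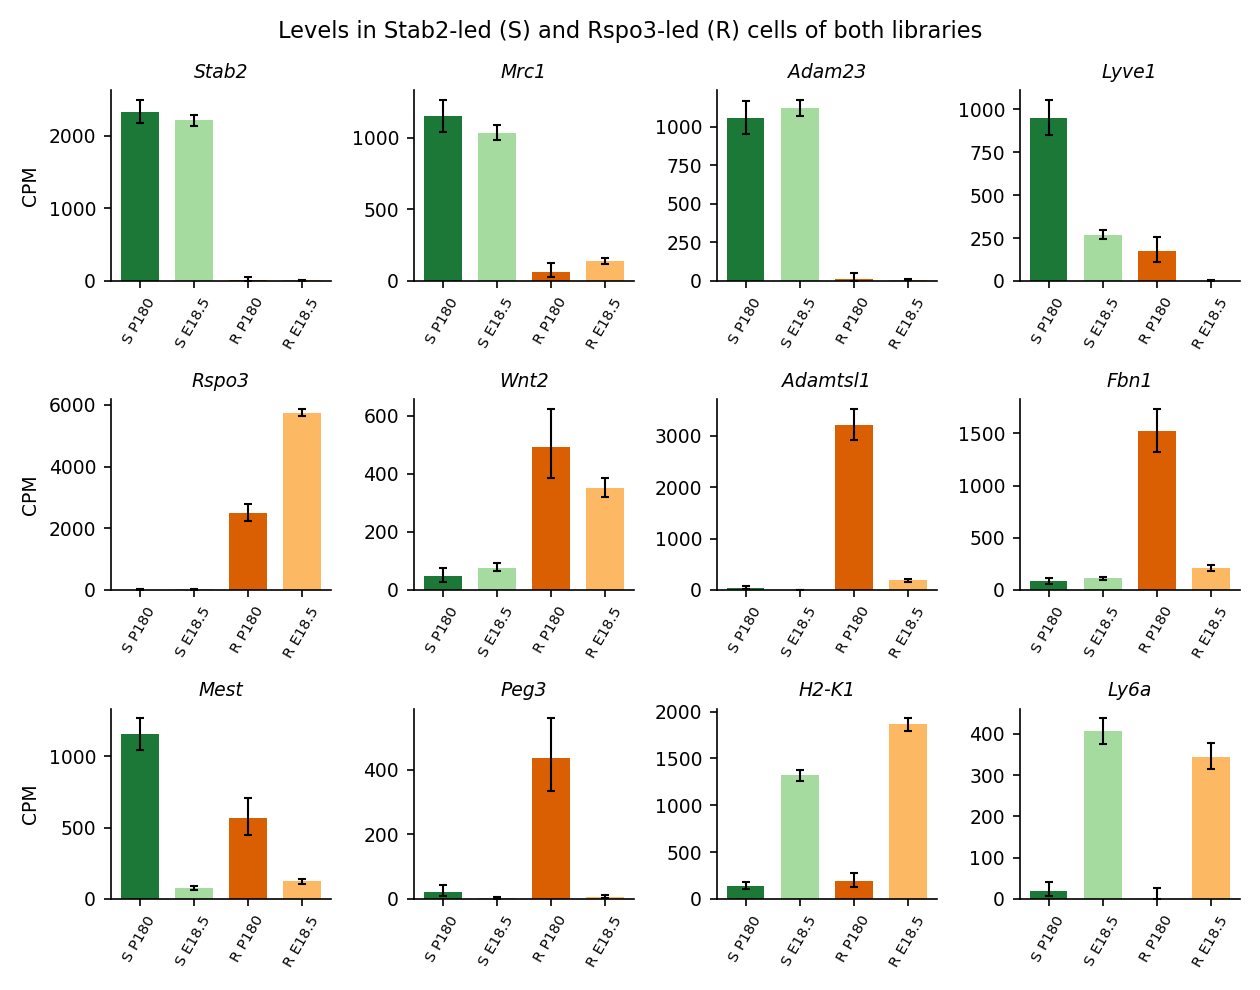
Levels of 12 genes (CPM, bars from 0) in Stab2-led (S) and Rspo3-led (R) cells of the libraries labelled P180 (dark) and E18.5 (light), with exact Poisson 95% intervals. Mrc1 and Adam23 are on the S side and Rspo3 and Wnt2 on the R side under both labels, Mest is higher with the P180 label in both kinds of cell, and H2-K1 and Ly6a are lower.

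Over all 119 and 1093 barcodes, 4176 genes had a mean of both CPMs of at least 50, and with the P180 label 492 of them were higher by 2-fold or more (11.8%) and 400 lower by as much (9.58%). Over the 112 and 1072, without the barcodes of low selection share, 232 of 4111 genes were higher (5.64%) and 250 lower (6.08%). Every ratio below is P180-labelled cells over E18.5-labelled cells, and the median log2 ratio of all measured genes was -0.05 over the first and 0.09 over the second set. A gene can pass the minimum level through the group where it is high, so counts over the measured genes of a list describe these libraries and support no difference of the list.

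Genes shared by all vessels lay between in 17 of 17 cases over the 112 (median log2 ratio -0.30), as did 3629 of all 4111 genes; Cdh5, Egfl7 and Ptprb of this list also chose the cells in both libraries. Outside the selection, Pecam1 stood at 555 and 815 CPM with the P180 and E18.5 labels, Eng at 796 and 1101, and Cldn5 at 323 and 185. Over all 119 barcodes 4 of the 17 were at least 2-fold lower, against 9.58% of all genes, and the median was -0.78.

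Of 18 measured transcription factors of these vessels, 0 were higher, 3 lower and 15 between (median -0.03), against 3629 of 4111 genes between and 6.08% lower over all genes. Gata4, which sets sinusoid identity, stood at 479.6 and 478 CPM, Meis2 at 1623 and 1629, and Nr2f2, a factor of veins, at 764 and 930.1. The 3 lower were Hhex and the flow-responsive Klf2 (log2 ratio -1.22 (-1.44 to -1.01)) and Klf4 (-1.79 (-2.37 to -1.26)). Gata6, under the minimum level, gave 24 UMIs at 38.4 CPM against 10.8.

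**Figure D3:**
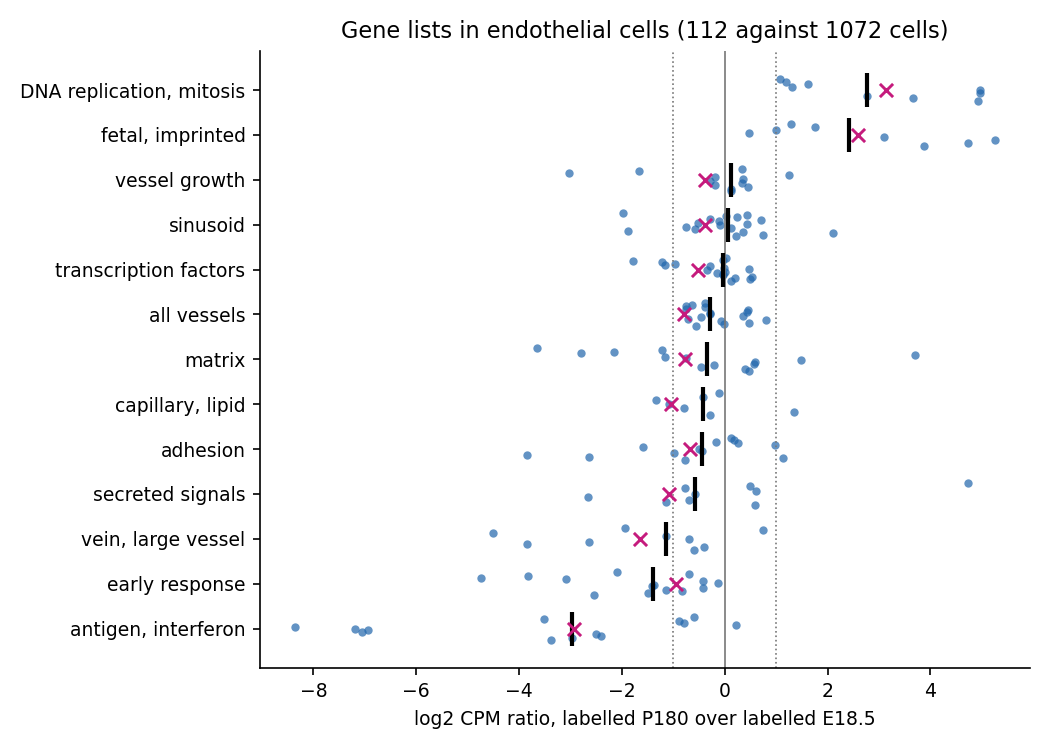
Each dot is 1 measured gene, by its log2 CPM ratio of the 112 cells labelled P180 over the 1072 labelled E18.5 (x), in 13 gene lists (y); a gene at 0 in a group is drawn at 3 counts. Bars are list medians over these cells, crosses those over 119 and 1093 barcodes, and dotted lines mark 2-fold. The dividing and fetal lists lie to the right, at 2.77 and 2.43, and the antigen list to the left, at -2.96.

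Among 18 measured sinusoid genes, Stab2 and Gpr182 of the selection included, 1 was at least 2-fold higher, 2 were lower and 15 lay between (median 0.07). This stands against 5.64% of all genes higher and 6.08% lower. Over all 119 barcodes the numbers of sinusoid genes were 1, 5 and 12 (median -0.39), against 11.8% of all genes higher and 9.58% lower. Lyve1 was the higher one, at 705 CPM (641 to 774) with the P180 label and 163 CPM (151 to 175) with the E18.5 label (log2 ratio 2.11 (1.94 to 2.29)). It was found in 66.1% and 22.8% of cells (thinned, 39.6% and 13.3%), and in Stab2-led cells alone in 72.5% and 34.2%. One cell held 89 of the 441 UMIs. Fcgr2b, with 82 UMIs in 30 cells, was the lower one beside Ntn4, a netrin of basement membranes, at log2 ratios of -1.87 (-2.21 to -1.56) and -1.97 (-2.27 to -1.69); 40 of the 105 Ntn4 UMIs came from 1 cell. The scavengers Stab1 (646 and 554 CPM) and Mrc1 (764 and 599) and factor VIII, F8 (662 and 943), lay between.

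Of 12 measured receptors and ligands of vessel growth, 1 was higher, 2 lower and 9 between (median 0.12), against 5.64% of all genes higher and 6.08% lower. The VEGF receptors Kdr (862 and 797 CPM), Flt1 (855 and 788) and Flt4 (315 and 231) differed by less than 1.5-fold. Insr, the insulin receptor, stood at 81.5 CPM (60.7 to 107) against 665 CPM (642 to 689.8), a log2 ratio of -3.03 (-3.46 to -2.63). Igf2r, which takes up the growth factor Igf2, was the higher one at 86.3 against 36.4 CPM, and Igf1r lay between at 302 and 344. Vegfc, a growth factor, was lower, at 86.3 and 276 CPM. Aplnr and Apln lay under the minimum level. Aplnr had 60 UMIs in 25 cells (at most 11 in 1) against 6 of 1072 cells (log2 ratio 5.74 (4.67 to 7.01)), and Apln had 18 UMIs in 9 cells against 5 of 1072 (3.68 (2.49 to 4.96)).

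Secreted signals from vessels to hepatocytes and blood cells had 1 higher, 2 lower and 6 between of 9 measured (median -0.58). Over all genes 5.64% were higher and 6.08% lower. With all 119 barcodes 5 were lower (median -1.09), against 9.58% of all genes. Rspo3 stood at 831 CPM (761 to 906) and 1832 CPM (1792 to 1872) and Bmp4 at 20.8 and 131 CPM, both lower. Kitl, the stem cell factor that sustains blood progenitors, stood at 149 and 252, and Bmp2 at 206 and 332. Igf2 was the higher one, with 161 of its 168 UMIs in 3 cells; without the 4 H19-rich cells described below it stood at 12.03 CPM in place of 269. Igf1, just under the minimum, had 58 UMIs in 19 cells, 17 of them in 1 cell, at 92.7 CPM against 6.51. Beside the level of Rspo3 stands the mix of cells, with 22 of 112 and 236 of 1072 Rspo3-led.

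Venous and large vessel genes were lower in 5 of 9 measured cases and higher in 0 (median -1.15), against 6.08% of all genes lower and 5.64% higher. Over all 119 barcodes 7 were lower (median -1.65), against 9.58% of all genes. Ly6a, Selp and Vcam1 were under 50 CPM with the P180 label and passed the minimum level through the E18.5 label alone. Ly6a, the stem cell antigen Sca-1, had 18 UMIs in 11 cells, at 28.8 CPM (17.1 to 45.5) against 657 CPM (634 to 682). Selp, the P-selectin that captures leukocytes, stood at 17.6 and 254 CPM, and Vcam1, another leukocyte adhesion molecule, at 46.4 and 291. Bgn, a proteoglycan, stood at 102 and 394, and Edn1, the vasoconstrictor endothelin, at 84.7 and 188. Within Rspo3-led cells of both libraries, 4 of 9 were lower (418 of 4042 genes, 10.3%, were lower there) and 5 lay between. Selp was 35.8 against 736 CPM there and Vcam1 21.5 against 565. Within Stab2-led cells 3 of 6 were lower and 1 was higher (median -0.82), against 6.14% and 7.85% of genes. Cells with at least 5 Mecom UMIs were 11 of the 112 and 227 of the 1072. Cells with neither Stab2 nor Rspo3 were 9 and 361. The part of this mix in the venous levels was not tested. Slco2a1, a prostaglandin carrier, was above its level in the E18.5-labelled cells but under 2-fold, at 289 against 173 CPM. Of 13 measured genes of leukocyte adhesion, which include Selp and Vcam1, 1 was higher, 3 were lower and 9 lay between (median -0.44). Over all genes 5.64% were higher and 6.08% lower.

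Of 7 measured capillary and lipid genes, 1 was higher, 2 lower and 4 between (median -0.42), against 5.64% of all genes higher and 6.08% lower. The fatty acid carrier Fabp5 stood at 606 and 237 CPM (log2 ratio 1.35 (1.18 to 1.52)), and Fabp4 at 2239.8 and 2739. The water channel Aqp1 (526 and 1113) and Plvap, a protein of capillary pores (163 and 409), were the lower ones. Aqp1 is also a red cell gene, found in 20.6% of thinned erythroid barcodes.

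The matrix list went both ways, with 2 higher, 5 lower and 7 between of 14, against 5.64% of all genes higher and 6.08% lower. Adamtsl1 was 1 of the 2 higher genes, at 798 against 61.3 CPM over all cells and 3215 against 185 in Rspo3-led cells alone (log2 ratio 4.12 (3.89 to 4.35)). Sparc, a matrix protein of growing tissue, was the other, at 1356 CPM (1266 to 1450.1) against 484 CPM (463 to 505). Timp3, an inhibitor of matrix proteases (-2.16 (-2.40 to -1.93)), Ltbp4, which binds latent TGF-beta (-2.80 (-3.25 to -2.38)), and Ccn2, a matrix protein induced by TGF-beta and YAP (-3.66 (-4.79 to -2.73)), were lower, given as log2 ratios. The basement membrane collagen Col4a1 lay between, at 385 and 279 CPM.

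Of 22 fetal and imprinted genes, 8 passed the minimum level, of which 6 were higher with the P180 label and 0 lower (median log2 ratio 2.43). Over all genes 5.64% were higher and 6.08% lower. With all 119 barcodes 5 of 7 were higher (2.59), against 11.8% of all genes. Over the 112, H19, Igf2, Peg3 and Sgce passed through the P180 label alone, and H19 and Igf2 lay mostly in 4 cells, described below. Mest and Grb10 were above 50 CPM with both labels. Mest, an imprinted gene of growing mesoderm, was the most widely found: in 93 of 112 cells, or 83.0% (74.8 to 89.5), with at most 48 UMIs in a cell, against 25.7% of the 1072. Thinned, these shares were 52.3% and 8.10%, and 0.103% in erythroid barcodes of the same library. Its log2 ratio was 3.09 (2.92 to 3.26) over all cells, 3.95 (3.65 to 4.26) in Stab2-led and 2.21 (1.80 to 2.60) in Rspo3-led cells. Of the whole list, 7 of 8 genes measured in Stab2-led cells were higher (median 2.82, against 7.85% of 4040 genes) and 5 of 7 in Rspo3-led cells (median 1.67, against 8.96% of 4042). Grb10, an imprinted brake on insulin signalling, was found in 85 cells and stood at 542 CPM (486 to 603) against 159.9 CPM (148 to 172). Sgce, which shares its imprinted domain with Peg10, was also higher, at 78.3 and 32.1 CPM. Cdkn1c, an imprinted cell cycle inhibitor (log2 ratio 0.99 (0.66 to 1.31)), and Plagl1, an imprinted zinc finger factor (0.48 (0.14 to 0.80)), lay between. Cdkn1c also lay mostly in the 4 cells described below, with 63 UMIs there and 39 in all others of the 112. Without those 4 cells it stood at 67.0 CPM.

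Some imprinted genes lay more on 1 side of the Stab2 and Rspo3 split, chosen here after their values were seen. Peg3, an imprinted zinc finger gene, was found in 15 of 22 Rspo3-led and 6 of 69 Stab2-led cells, at 437 CPM (334 to 561) and 22.7 CPM (9.79 to 44.7). With the E18.5 label it was found in 15 of 1072 cells, at most 4 UMIs in 1. Peg10, a gene derived from a retrotransposon, stood the other way, at 116 CPM (83.4 to 158) in Stab2-led cells and 1 UMI in all Rspo3-led cells. RNA-binding proteins and regulators of fetal cells were low but spread over cells. Igf2bp3 had 61 UMIs in 36 cells (at most 5 in 1) and Igf2bp2 44 in 24, against 6 and 5 of 1072 cells. Igf2bp1 had 31 UMIs in 20 cells and Hmga2, a chromatin protein of embryonic cells, 26 in 16, with 0 UMIs for both in the 1072. Those levels were at least 73.6-fold and 61.7-fold higher against 3 counts over the group. Of the genes that mark the emergence of blood from vessels, 1 of 9 was measured in the 112, and it was lower (log2 ratio -1.13). Over all genes 6.08% were lower, and 1 gene describes no level of the list. The 7 deep barcodes held a further 45 Hmga2 UMIs and 25 of Igf2bp3.

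H19 and Igf2, neighbouring imprinted genes of fetal growth, did not follow this spread. Of 254 H19 UMIs in the 112 cells, 230 (90.6%) lay in 4 cells, which held 99, 76, 35 and 20; 20 further cells held 1 to 3 each. Igf2 stood at 118, 18, 25 and 0 UMIs in the same 4 cells, in that order, which is 161 of its 168 UMIs. Those 4 cells held 7.002% of all UMIs of the 112. Without them H19 stood at 41.3 CPM (26.4 to 61.4) and Igf2 at 12.03 CPM (4.84 to 24.8), in place of 406 and 269. With the E18.5 label H19 stood at 27.8 CPM (23.2 to 33.2), and 88 of its 124 UMIs lay likewise in 4 cells.

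The H19-rich cells met the selection with 31 to 96 UMIs from 6 or 7 of the 7 genes. They had 3, 15, 38 and 14 UMIs of Cldn5, a tight junction protein of endothelium that the rule did not use, 8644 to 15742 UMIs in all and 1.69% to 3.33% mitochondrial UMIs, and none of them had an Alb, Afp or Dlk1 UMI. Mecom, a transcription factor of arterial and blood stem cells, stood at 30, 38, 104 and 8 UMIs in them, which is 180 of the 274 Mecom UMIs. Gja5, the connexin of arterial endothelium, stood at 5, 9, 8 and 0, and no other cell of the 112 had a Gja5 UMI. Slit2, a guidance ligand, stood at 26, 22, 43 and 5, and Adgrg6, an adhesion receptor, at 15, 26, 32 and 3. In CPM, Adgrg6 stood at 1735 in the 4 cells and 3.44 in the other 108, and Cdkn1c at 1438 and 67.0; the 4 cells were picked for H19, so these are descriptions. The Notch ligands Jag1 (11, 6, 6 and 1 UMIs) and Dll4 (7, 3, 8 and 3) were found in all 4. The cell with the fewest H19 UMIs had 14 Stab2 UMIs and no Gja5. By a minimum of 5 Mecom UMIs, 11 of the 112 cells qualified and 5 of them had H19, against 9 of 227 such cells with the E18.5 label; Gja5 was found in 112 of the 1072 cells there.

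**Figure D4:**
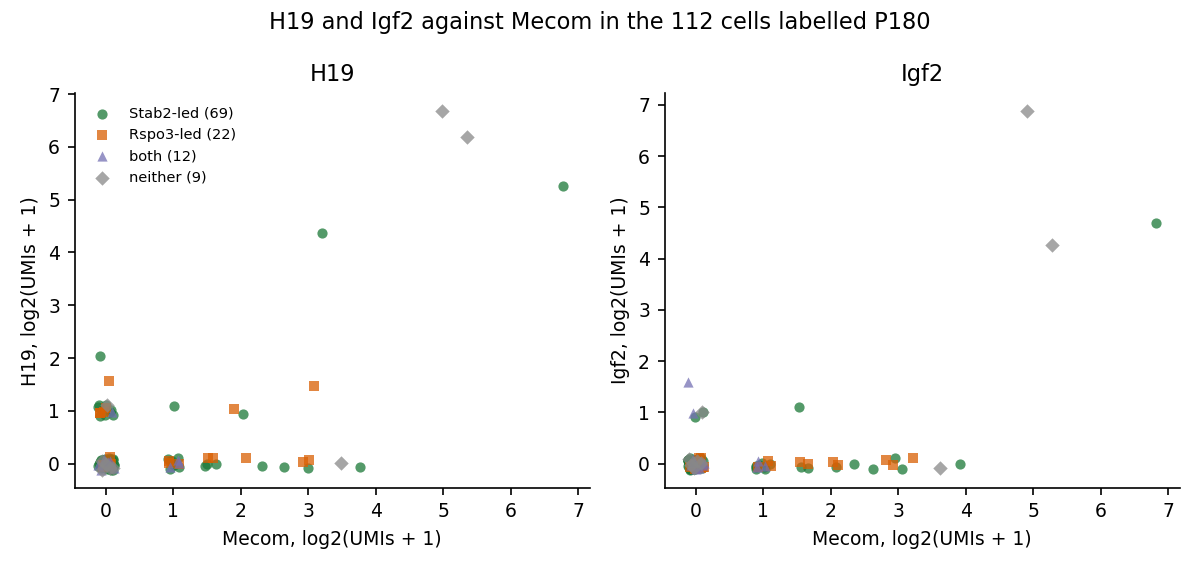
Each point is 1 of the 112 cells labelled P180, by Mecom UMIs (x) and by H19 (left) or Igf2 (right) UMIs (y), all as log2(UMIs + 1) with a small random shift that separates points at the same value. The 4 cells with 20 to 99 H19 UMIs are the highest in the left panel, and the 3 of them with 30 to 104 Mecom UMIs lie farthest right and hold 161 of 168 Igf2 UMIs.

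Artery and Notch genes were otherwise sparse. Of 5 measured artery genes 2 were lower and 3 between, against 6.08% of all genes lower. Gja4, another arterial connexin, had 17 UMIs in 9 cells, at 27.2 against 130.2 CPM. Of 4 measured Notch genes, Jag1 (63.9 and 199 CPM) and the target Hes1 (75.1 and 236) were lower, against the same 6.08%. Notch1 and Dll4 lay between.

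Of 30 genes of DNA replication and mitosis, 9 passed the minimum level and all 9 were higher with the P180 label (median log2 ratio 2.77). Over all genes 5.64% were higher. But 6 of the 9, Mki67 and Top2a among them, were under 50 CPM with the E18.5 label and passed through the P180 label alone. Summed over all 30 genes the level was 2849 CPM in the 112 and 751 CPM in the 1072. Over all 119 barcodes 14 of 15 were higher (3.13), against 11.8% of all genes. The 7 deep barcodes held 2275 of the list's UMIs against 1782 in the 112. Mki67, a protein of dividing nuclei, was found in 17 cells and Top2a, the topoisomerase of dividing cells, in 19, and 9 cells had both, against 7 of 1072. Of 150 Mki67 UMIs, 72 lay in 1 cell of 41603 UMIs. That cell also held 645 of the 1782 UMIs of the whole list in the 112. It had 36 Stab2, 37 Kdr and 38 Mrc1 UMIs together with 15.9% haemoglobin. Without it, 5 of 7 measured genes were higher (median 2.04) and Mki67 stood at 134 CPM (106 to 167). With only cells under 2% haemoglobin (103 and 1061), 3 of 5 were higher (median 1.00), and Mki67 stood at 63.5 CPM (43.9 to 88.7) in 12 cells against 7.94 CPM, a log2 ratio of 2.998 (2.27 to 3.72). No share over all genes was taken for either of these sets of cells. Erythroid markers were seen in all 112 cells, with 9 of 9 genes and a summed level from 2613 to 164561 CPM per cell, and their part in the result was not tested. Thinned, Mki67 was found in 7.21% of the endothelial cells and in 30.1% of erythroid barcodes. Median haemoglobin was 0.597% of UMIs in the 17 cells with an Mki67 UMI and 0.680% in the 95 without. These medians count cells, not UMIs: of the 150 Mki67 UMIs, 34 lay in cells under 2% haemoglobin. Beside the cell with 72, 1 cell held 26 at 16.2% haemoglobin and 1 held 11 at 8.94%. Which cells these Mki67 transcripts came from was not tested.

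Antigen presentation and interferon genes were lower with the P180 label in 9 of 13 measured cases and higher in 0 (median log2 ratio -2.96). Over all genes 6.08% were lower and 5.64% higher. With all 119 barcodes 12 of 13 were lower (-2.92), against 9.58% of all genes. Among the lower ones, H2-Aa, H2-Ab1, H2-Eb1, Cd74 and Ly6e were under 50 CPM with the P180 label. These passed the minimum level through the E18.5 label alone. The class I heavy chain H2-K1, which presents peptides to T cells, stood at 144 CPM (116 to 177) against 1498 CPM (1462 to 1534), a log2 ratio of -3.38 (-3.70 to -3.08). It was found in 44 of 112 cells, or 39.3% (30.2 to 49.0), against 91.6%, and thinned in 14.4% and 69.7%. Its partner chain B2m had a log2 ratio of -2.41 (-2.61 to -2.21) and H2-D1 of -2.96 (-3.36 to -2.59). In Stab2-led cells alone H2-K1 stood at 139 and 1320.0 CPM, and in Rspo3-led cells at 193 and 1863. Of the list, 8 of 12 genes measured in Stab2-led cells were lower (6.14% of all genes were) and 1 was higher, and 8 of 10 were lower in Rspo3-led cells (10.3% of all genes were). Of the class II genes, H2-Aa, H2-Ab1, H2-Eb1 and Cd74 each gave 1 UMI in the 112 cells, against 196 to 523 CPM in the 1072, where Cd74 was found in 172 cells. With the E18.5 label, macrophage markers gave 918 UMIs in 90 of the 1072 cells (10 of 10 genes, 0 to 25297 CPM per cell) and B cell markers 1476 in 168 (8 of 8 genes, 0 to 16929.8 CPM); with the P180 label, macrophage markers gave 21 UMIs in 14 cells, with C1qa, Adgre1, Clec4f and Vsig4 at 0, and B cell markers 23 in 12, with Cd79a, Cd79b, Pax5 and Ms4a1 at 0. Their part in the class II levels was not tested. Ly6e, an interferon-induced surface protein, stood at 41.6 and 477 CPM, while Bst2, Irf1 and Isg15 were among those between.

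Early response and heat shock genes, which rise when tissue is dissociated, were lower in 9 of 14 cases and higher in 0 (median -1.39). The shares over all genes were 6.08% lower and 5.64% higher. Over all 119 the median was -0.95 with 6 lower, against 9.58% of all genes. The 7 deep barcodes held 613 Jun UMIs against 174 in the 112. Hspa1a, a heat shock protein, had 5 UMIs, at 7.99 against 214 CPM, and Fos stood at 78.3 against 454. Their part in the other results was not tested. Of 4 measured p53 targets, 1 was higher, which was Bax (169 and 81.3 CPM), and 3 lay between, against 5.64% of all genes higher. Cdkn1a, the cell cycle inhibitor that p53 induces, gave 10 UMIs in 4 cells.

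The genes at the extremes of the comparison included several outside the lists. By the fixed rule over the 112, the highest ratios were those of Uty, Sorcs1, Ddx3y, Igf2bp3, Obsl1, Aplnr, Peg3, Ppp1r9a, H19, Adamtsl1, Carmil1, Hs6st3, Ptk7, Fabp1 and Mest. Sorcs1, a sorting receptor, had 52 UMIs in 26 cells and 0 in the 1072, at least 123-fold higher, and was found in Stab2-led cells (128 CPM) and not in Rspo3-led cells. Ppp1r9a, which binds actin, was found in 87 of 112 and 89 of 1072 cells, at 513 CPM (459 to 573) against 33.2 CPM (28.1 to 39.0). Hs6st3, an enzyme that sulphates heparan chains, stood at 239.8 and 23.1 CPM and Carmil1, an actin regulator, at 152 and 13.9. The lowest included Xist, Pla2r1, Rasgrf2, Galnt15, Csmd1, Xdh, Hpse, Ly6a, Samd12, Nr3c2, Selp, Pdgfd, Ccn2 and Plscr4. Pla2r1, a receptor of secreted phospholipase, and Rasgrf2, a Ras activator, gave 0 UMIs in the 112, and were at least 26.5-fold and 21.6-fold lower. Xdh, xanthine dehydrogenase, was found in 4 of 112 and 501 of 1072 cells. Nr3c2, the mineralocorticoid receptor, stood at 14.4 and 217 CPM.

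Sex chromosome genes separated the libraries almost fully. Xist, the RNA that silences an X chromosome, was found in 0 of the 112 cells and in 988 of 1072 (92.2%), at 1578 CPM (1542 to 1616), which bounds its level in the 112 at least 329-fold lower. Y-linked genes (Ddx3y, Uty, Kdm5d, Eif2s3y) gave 205 UMIs in 76 of the 112 cells and 3 UMIs in 3 of the 1072. No cell labelled P180 had both, and all 3 cells with a Y-linked UMI under the E18.5 label also had Xist. Sex of the cells and label therefore cannot be told apart in any comparison between the libraries.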

How the data were processed

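The authors deposited UMI counts for each gene in each barcode, not normalized. Per the file headers they come from Cell Ranger 7.1.0; per the labels the libraries are 3′ droplet libraries. The submitters' processing notes also name fastp, Trimmomatic, Seurat, edgeR and the genome mm10. Barcodes with at least 200 genes, 500 UMIs and under 25% mitochondrial UMIs were kept. The selection, gene lists and rules were chosen with earlier results of these data known. No doublet caller was part of the selection; removal by Scrublet score was an alternative. UMIs were summed over cells and scaled to CPM, with exact Poisson intervals, exact (Clopper-Pearson) binomial intervals for shares and exact conditional intervals for ratios, at 95%, with Python 3.11.15, scipy 1.17.1 and scanpy 1.11.5. A ratio against 0 uses 3 counts over the group. Genes with a mean of both CPMs of at least 50 were measured; called means a 2-fold ratio. Cells are not replicates, so nothing was tested. Ratio intervals were run on simulated Poisson counts, the model they assume. This checks the code and cannot show how they hold where UMIs cluster in few cells. Named genes are the selection genes, list members with a mean CPM of at least 50, the 15 highest and 15 lowest ratios among genes with at least 50 UMIs (for low genes, expected at equal CPM), found in at least 20% of cells of the higher group and not higher in the rest of its library, and the 20 highest ratios over the rest. List members under the minimum level, genes of the Stab2 and Rspo3 split and of the H19-rich cells were chosen after their values were seen. Symbols on more than 1 row (38) were left out of named genes. The 4721 kept barcodes labelled E18.5 held 30684994 UMIs in all, and the 9582 labelled P180 held 89880784.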

Additional observations from a re-analysis of the deposited data

How the results depend on the processing

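No paired analysis was possible because each label has 1 library. Of 141 named or listed genes called over all 119 barcodes (50 higher, 91 lower), each that was still measured kept its direction under 11 alternatives and 1 added later, except Icam1 (0.35), Rspo3 (1.06) and Vwf (1.38), whose log2 ratios reversed with cells of at least 2 Stab2 UMIs. The 2-fold call was kept by fewer: 104 of 128 with at least 10 selection UMIs, 103 of 125 at equal weight, 93 of 120 with 2 Stab2 UMIs and 104 of 128 with the 0.1% minimum. Counts of higher and lower genes were 227 and 253 with at least 10 selection UMIs, 220 and 266 with each cell at equal weight, 299 and 237 with at least 2 Stab2 UMIs, 117 and 112 at a mean CPM of at least 200, 1468 and 1027 at 10, and 232 and 250 with the added minimum of 0.1% selection share, chosen after seeing the data. The fetal and imprinted median was 2.34 with at least 3 selection UMIs, 2.42 with 10, 3.07 at equal weight, 3.95 with 2 Stab2 UMIs and 4.18 at a mean CPM of 10. The replication and mitosis median was 2.56 with at least 10 selection UMIs, 1.82 under 2% haemoglobin, 2.04 at equal weight and 2.56 with 2 Stab2 UMIs. The antigen median was -3.31 at equal weight. The sinusoid median was 0.0947 with 10 selection UMIs and 0.0725 with the 0.1% minimum. The venous median was -1.11 with 10 selection UMIs, -0.63 with 2 Stab2 UMIs, -2.45 at a mean CPM of 200 and -1.15 with the 0.1% minimum. The capillary median was -0.42 with 10 selection UMIs, -0.51 with 2 Stab2 UMIs, -0.86 at a mean CPM of 10 and -0.42 with the 0.1% minimum. Under 10% mitochondrial UMIs, 61 barcodes remained. At a mean CPM of 200 the fetal and the mitosis lists gave no median, since under 3 of their genes were measured. Beyond the construction of each alternative the cause was not tested. With 1 library per label nothing measures the spread between livers, and 112 cells leave genes under about 50 CPM with few UMIs.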
